A study of Mus musculus with 4 samples.

Results

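The nuclear genes of the respiratory chain and ATP synthase were followed in M1 and M2 macrophages with and without interleukin-1α (IL-1α). Members were taken by name: every probe set of the array with a single gene symbol beginning Ndufa, Ndufb, Ndufs, Ndufv or Ndufc, Uqcr, Cox4 to Cox8 or Atp5, together with Sdha, Sdhb, Sdhc and Sdhd. This gave 114 probe sets for 89 of the 19938 genes measured, 72 of them on 1 probe set each and 17 on several, whose values were averaged. By complex, 41 belonged to complex I, 4 to complex II, 8 to complex III, 19 to complex IV and 17 to complex V. The name rule matched 81 subunits and 8 genes that encode no subunit: 7 complex I assembly factors (Ndufaf genes) and Cox7a2l, which is known for joining complexes III and IV into supercomplexes. Ndufa4 and Ndufa4l2 were placed with complex IV, where the Ndufa4 protein is now known to sit. Another 6 probe sets carried several symbols, at least 1 of which matched, and were not analysed here. None of the mitochondrially encoded subunits was measured.

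The macrophages were grown from the bone marrow of C57BL/6N mice in 10 ng/mL M-CSF with medium changes on days 3 and 6 and harvest on day 9. M1 cells received 10 ng/mL interferon-γ and M2 cells 20 ng/mL interleukin-4 for 48 h, and each was given vehicle or 10 ng/mL IL-1α for 24 h. Each of the 4 groups was 1 Affymetrix array, so values have no standard deviation, differences between arrays have no replicate check, and precision is limited by the number of arrays. The labels do not say whether cells of several animals were pooled. Levels are RMA log2 signals (RMA is background correction, normalisation across arrays and summary of each probe set), and differences are differences of these log2 signals except where given as a fold. In such bulk samples, fewer cells of a type and less RNA per cell cannot be told apart.

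Complexes I to IV pass electrons from NADH and succinate to oxygen and pump protons (complex II does not), and complex V, the ATP synthase, uses the proton gradient to make ATP. Complex I takes electrons in through its N module, passes them to ubiquinone in its Q module and pumps protons in its membrane arm. Macrophages activated with interleukin-4 are known for reliance on oxidative phosphorylation, and inflammatory macrophages for glycolysis and for altered succinate oxidation.

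Checks of the arrays used genes outside the respiratory chain. All 8 macrophage markers reached the median of all genes, a log2 signal of 7.617 used here as a floor for dim genes (a gene is at the floor where at least 1 array reached it). By limma (defined with the M2 to M1 comparison), 4 of 5 M1 markers were lower and 5 of 5 M2 markers higher in M2. Of the 8 macrophage markers, 3 were called higher and 4 lower in M2. Fcgr1 was lowest against M1 (13.04 and 12.98 in M1, 9.99 and 10.08 in M2). Correlation over genes was 0.9969 within the M1 pair, 0.9958 within the M2 pair and 0.9617 to 0.9658 across phenotypes. Markers of other cells and of division also moved with phenotype. Summed linear signals for 11 cell cycle genes (all 11 higher in M2 by limma) were 8720 and 9107 in M1 and 19813 and 20548 in M2. For 6 osteoclast genes (4 higher) they were 2636 and 2650 against 11199 and 11689, and for 8 neutrophil genes (5 higher) 964 and 1005 against 2269 and 2142. For 6 dendritic cell genes (4 lower, 1 higher) they were 2350 and 2005 against 753 and 726. Erythroid, lymphocyte and stromal or endothelial lists (3, 6 and 8 measured) had 1, 1 and 5 genes at the floor. In each of these lists 1 gene was called higher in M2 (Epor, Cd79b and Pecam1 in turn), and Kdr was called lower. The part of proliferation and of such cells in the M2 to M1 differences was not tested. The members themselves were well above the dim range: 80 of 89 reached the floor on all 4 arrays, Ndufb2 on some, and 8 on none (Ndufaf5, Ndufaf6, Cox6b2, Ndufa4l2, Cox7b2, Cox8c, Cox4i2 and Cox8b).

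Promoters of 5 members are shown because the results turn on them: Cox7a1 differed most between phenotypes, Atp5g1, Atp5g2 and Atp5g3 encode the same mature c subunit of the ATP synthase and differed alike, and Uqcr11 differed most within the M1 pair. Each run is the 250 bases before the start site, 5′ to 3′ on the gene's strand, from RefSeq (build GRCm38.p6; plus strand for Cox7a1, minus strand for the other four). Capitals mark a match to a nuclear respiratory factor core (CGCATGCG), an ETS-family core (CCGGAAG) or a YY1 core (AAGATGGC), searched on both strands. The nuclear respiratory factor core reads the same on both strands, and the searched motifs were counted separately.
Cox7a1 chr7:30183921-30184170: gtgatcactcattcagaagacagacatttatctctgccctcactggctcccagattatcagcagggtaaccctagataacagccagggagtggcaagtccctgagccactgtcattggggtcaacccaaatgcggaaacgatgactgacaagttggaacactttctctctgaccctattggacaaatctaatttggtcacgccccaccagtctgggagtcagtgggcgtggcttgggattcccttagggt
Atp5g1 chr11:96075632-96075881: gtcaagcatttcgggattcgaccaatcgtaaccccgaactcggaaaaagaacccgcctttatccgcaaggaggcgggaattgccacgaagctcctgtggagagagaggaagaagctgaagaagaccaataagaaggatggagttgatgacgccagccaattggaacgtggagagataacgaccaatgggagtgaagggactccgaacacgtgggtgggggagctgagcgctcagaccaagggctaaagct
Atp5g2 chr15:102671048-102671297: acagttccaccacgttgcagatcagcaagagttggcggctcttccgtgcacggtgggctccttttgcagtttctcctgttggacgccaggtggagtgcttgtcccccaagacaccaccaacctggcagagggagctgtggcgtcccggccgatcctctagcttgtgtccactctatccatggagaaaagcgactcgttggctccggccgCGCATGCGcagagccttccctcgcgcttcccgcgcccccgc
Atp5g3 chr2:73911327-73911576: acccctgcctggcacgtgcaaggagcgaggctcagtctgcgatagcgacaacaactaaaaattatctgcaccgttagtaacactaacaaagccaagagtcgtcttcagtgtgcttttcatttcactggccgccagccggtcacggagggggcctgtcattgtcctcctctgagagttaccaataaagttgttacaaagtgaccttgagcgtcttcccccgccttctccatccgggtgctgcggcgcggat
Uqcr11 chr10:80406822-80407071: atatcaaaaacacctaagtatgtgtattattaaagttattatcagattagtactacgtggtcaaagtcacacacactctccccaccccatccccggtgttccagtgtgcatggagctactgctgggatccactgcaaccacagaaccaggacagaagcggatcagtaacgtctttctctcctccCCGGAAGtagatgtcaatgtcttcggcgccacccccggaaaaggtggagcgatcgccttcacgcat
The nuclear respiratory factor core in Atp5g2 began 41 bases before the start and the ETS core in Uqcr11 66 bases before it. None of the 3 motifs was in the windows of Cox7a1, Atp5g1 or Atp5g3, which says only that these letters are not there. Over the 73 members with a promoter in the table (78 promoters), the nuclear respiratory factor core was in 10.3% of promoters, against 1.55% of all 32851 promoters and 3.26% of those of genes at the floor. Its 8 carriers were Atp5g2, Atp5j, Atp5k, Atp5l, Cox6a1, Ndufa11, Ndufa8 and Ndufaf4. The ETS core was in 16.7% of member promoters, against 6.91% of all promoters and 13.8% at the floor, and the YY1 core in 1.28%, against 1.56% and 2.09%. A match is a description of the sequence and not evidence of binding.

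The comparison of M2 with M1 asked how the phenotypes differ in respiratory chain genes. Differences were mostly small and went both ways: Cox7a1 was the only member 2-fold apart in either treatment, 11 of 17 ATP synthase genes were higher in M2, and Sdhb, Ndufs3 and 3 of 7 complex I assembly factors were among the 8 members that were lower. An additive limma model over all 19938 genes, with phenotype and treatment as terms, was the only test. It called 29 members higher and 8 lower in M2 at an adjusted p of 0.05 and made no call for 52. These are 32.6% and 8.99% of the members. Over all genes it called 18.7% higher and 16.2% lower, and among genes at the floor 31.4% and 27.3%, so the members' share of higher calls was near that of genes at the floor. With loess centring of the arrays 28 members were called higher and 13 lower, and without limma's intensity trend 21 and 5. The 11 calls lost without the trend are Ndufv2, Ndufv3, Ndufs4, Ndufa8, Ndufb5, Ndufc2, Uqcrh, Cox5a, Atp5j, Atp5l and Atp5o. The phenotypes did not overlap, with both M2 arrays on 1 side of both M1 arrays, for 70 members (78.7%), against 63% of all genes and 81.4% of those at the floor. Its error is the departure from additivity in these arrays with variance shared across genes, not a spread between cultures. The median member difference was 0.04 with vehicle and 0.18 with IL-1α (all genes, 0.03 and −0.03). Among genes at the floor the medians were 0.01 and 0.03. With vehicle 54 of 89 members were above 0, against 10994 of 19938 genes and 5452 of the 10625 genes at the floor. With IL-1α 63 members were above 0, against 8958 of all genes and 5678 of those at the floor. At 2-fold, 1 member was higher and 0 lower in each treatment, where the backgrounds were 3.88% higher and 3.71% lower with vehicle and 4.52% and 3.3% with IL-1α. At 1.5-fold, 2 members were higher and 0 lower with vehicle (backgrounds 8.18% and 7.44%), and 6 were higher and 1 lower with IL-1α (9.52% and 6.56%). The 6 were Cox7a1, Ndufb11, Ndufs8, Ndufa4, Uqcrc1 and Atp5k. At a smaller difference of 0.32 log2 units, 12 were higher and 6 lower with vehicle (15.5% and 13.9%), and 26 higher and 4 lower with IL-1α (16.7% and 14%).

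**Figure D1:**
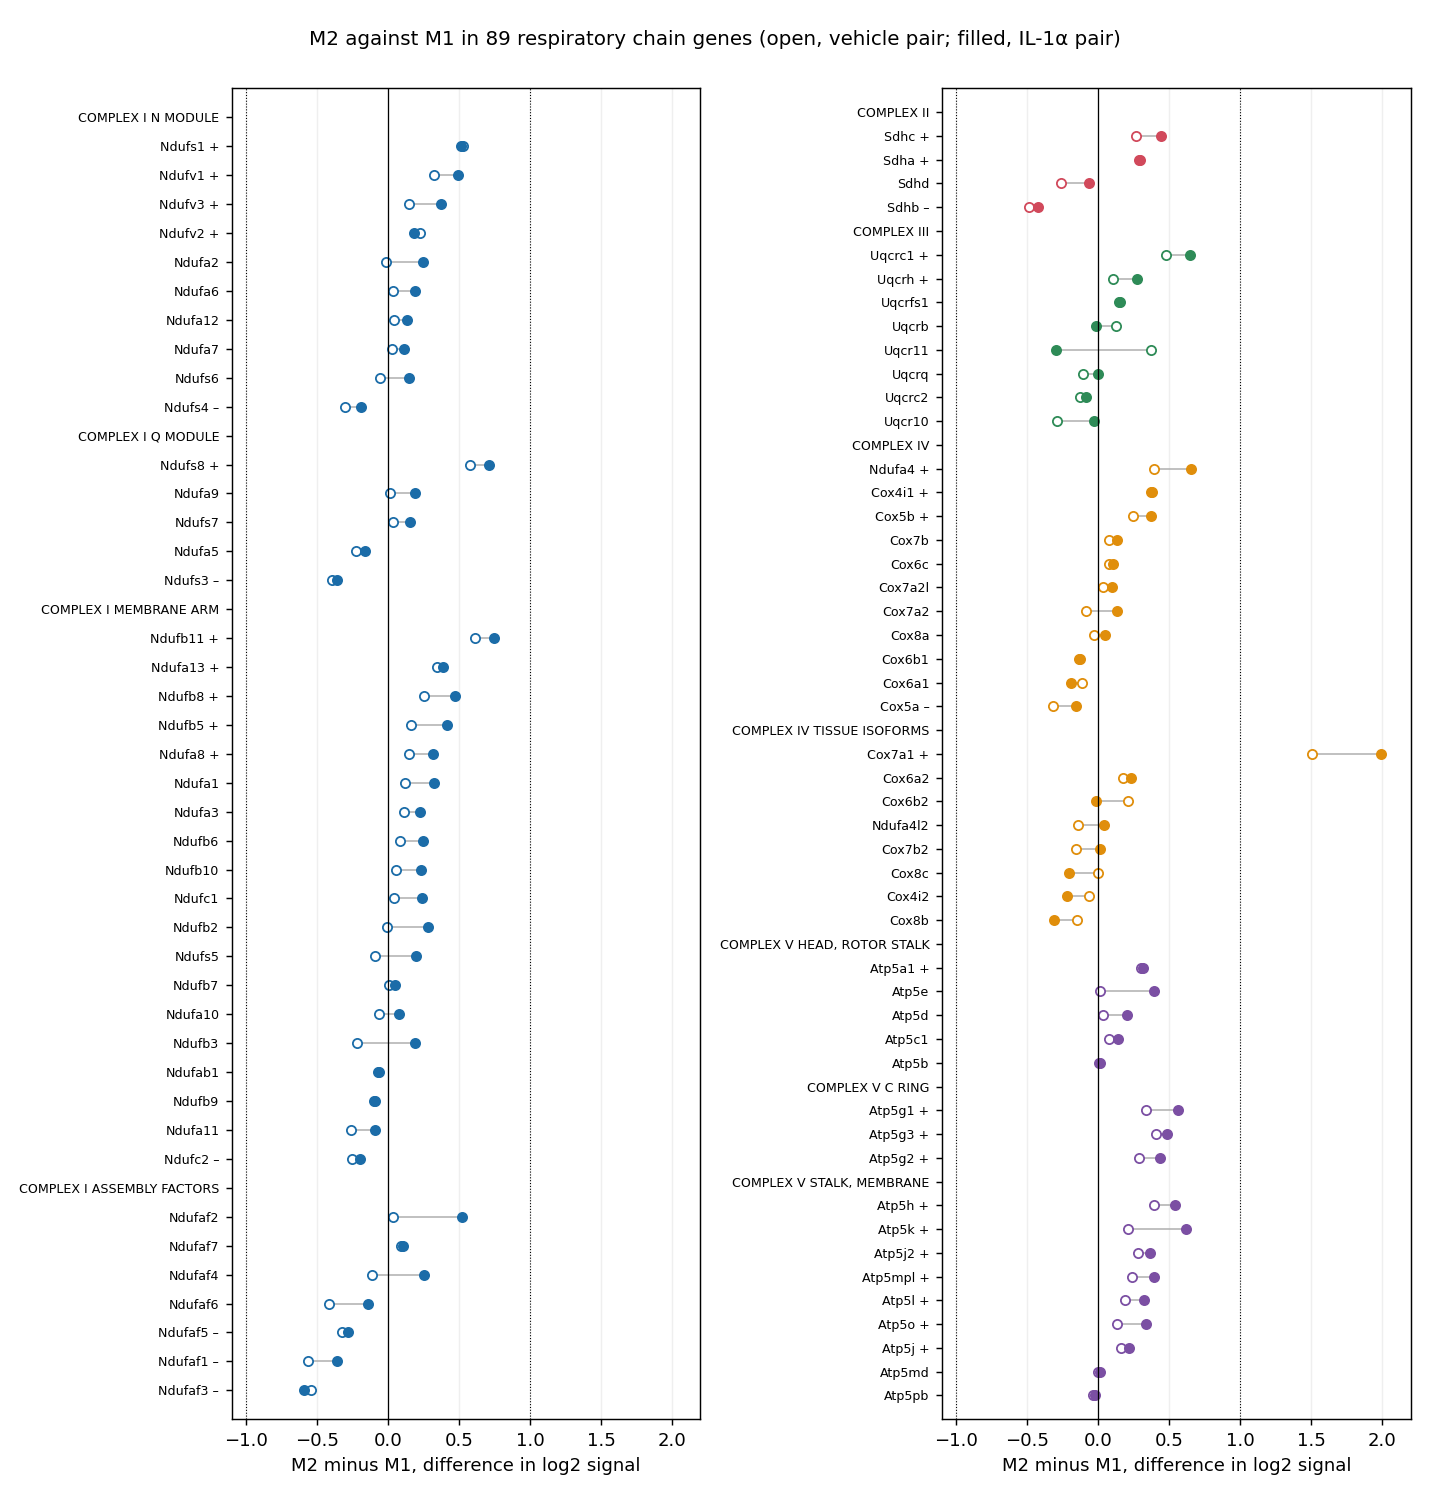
M2 minus M1 difference in log2 signal (horizontal axis) for each of the 89 members, grouped by complex and class; open points are the vehicle pair of arrays, filled points the IL-1α pair, dotted lines 2-fold, and + or – after a symbol a limma call higher or lower in M2. Cox7a1, at 1.51 and 1.99, is the only member past a dotted line, and 11 of 17 complex V genes carry a +.

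In complex I, 10 of 34 subunits (29.4%) were called higher in M2 and 3 (8.82%) lower. The share called higher is within the range of the background (18.7% of all genes and 31.4% of those at the floor), and without the trend 6 were higher and 1 lower. The N module, which oxidises NADH, had 4 of 10 higher: Ndufs1, the large iron-sulfur subunit (effect 0.52), Ndufv1, which binds NADH and flavin (0.40), Ndufv3 (0.26) and Ndufv2 (0.20). Ndufs1 read 9.60 and 9.69 in M1 and 10.13 and 10.20 in M2, with no overlap between phenotypes. Ndufs4, an accessory subunit whose loss causes Leigh syndrome, was the N module gene called lower (−0.25). In the Q module, Ndufs8 and Ndufs3 went opposite ways. Ndufs8, which carries a pair of iron-sulfur clusters, read 10.90 and 10.87 in M1 and 11.47 and 11.58 in M2 (effect 0.64 ± 0.06 SE, limma adjusted p = 2.62e-05). Ndufs3, a core subunit around which the module is built, read 11.49 and 11.48 in M1 and 11.09 and 11.12 in M2 (−0.38 ± 0.06, adjusted p = 0.0006). Both M2 arrays lay above both M1 arrays for Ndufs8 and under them for Ndufs3. The 2 probe sets of Ndufs3 differed from each other by no more than 0.04 in any pair. Ndufa5, Ndufs7 and Ndufa9 of the same module had no call.

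The membrane arm had 5 of 19 higher (26.3%) and 1 lower (5.26%). Its share higher is within the range of the background (18.7% of all genes and 31.4% of those at the floor). For calls lower the background was 16.2% and 27.3%. Ndufb11, an X-linked accessory subunit, read 10.88 and 10.84 in M1 and 11.49 and 11.58 in M2, or 0.61 higher with vehicle and 0.74 higher with IL-1α (effect 0.68 ± 0.06, limma adjusted p = 1.85e-05). Its M2 arrays lay clear of its M1 arrays, and with Cox7a1 it made up the 2 members at least 1.5-fold higher with vehicle. The others called higher were Ndufa13, which also has a described role in interferon-induced cell death (0.36), Ndufb8 (0.36), Ndufb5 (0.29) and Ndufa8 (0.23). Ndufc2 was lower (−0.22). The 13 others ranged from −0.17 (Ndufa11) to 0.22 (Ndufa1) without a call. The 2 probe sets of Ndufa11 differed from each other by up to 0.20.

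Of the 7 complex I assembly factors, none was called higher and 3 (42.9%) were called lower. The background was 16.2% of all genes and 27.3% of those at the floor called lower, and 18.7% and 31.4% called higher. Ndufaf3, which works on the Q module, read 10.71 and 10.88 in M1 and 10.17 and 10.29 in M2 (−0.57 ± 0.07, limma adjusted p = 9.64e-05). It was the only member 1.5-fold lower in any pair (IL-1α pair, −0.59). Ndufaf1, which acts on the membrane arm, was at −0.46, and Ndufaf5, which modifies Ndufs7, at −0.31 but under the floor on every array. Ndufaf4, the partner of Ndufaf3, had an effect of 0.07 with no call.

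All 4 subunits of complex II, succinate dehydrogenase, are nuclear, and they split. The flavoprotein Sdha, which oxidises succinate, read 12.04 and 12.07 in M1 and 12.33 and 12.36 in M2 (0.29 ± 0.05, limma adjusted p = 0.00106). The iron-sulfur subunit Sdhb, which binds Sdha and takes its electrons, read 11.58 and 11.62 in M1 and 11.09 and 11.19 in M2 (−0.46 ± 0.06, adjusted p = 0.000168). The groups did not overlap for either, as for 63% of all genes and 81.4% of those at the floor, and the signs were opposite. The membrane anchors split the same way: Sdhc read 11.47 and 11.31 against 11.74 and 11.74 (0.35 ± 0.06, adjusted p = 0.00134). Sdhd read 11.39 and 11.30 against 11.13 and 11.24, and its effect of −0.17 ± 0.07 did not pass (adjusted p = 0.0896).

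In complex III, 2 of the 8 members (25.0%) were called higher and none lower. That share lies between the 18.7% of all genes and the 31.4% of genes at the floor called higher. Of the same backgrounds, 16.2% and 27.3% were called lower. Cyc1, the cytochrome c1 subunit of the complex, falls outside the name rule and was called lower (−0.26, limma adjusted p = 0.00746). Uqcrc1, a core protein, read 11.72 and 11.57 in M1 and 12.20 and 12.22 in M2 (0.56 ± 0.06, limma adjusted p = 4.4e-05). Its partner core protein Uqcrc2 had an effect of −0.11 with no call. The hinge protein Uqcrh was called higher at 0.19 (adjusted p = 0.037), a call lost with loess centring of the arrays and also without the trend. The Rieske protein Uqcrfs1 (0.15), Uqcrq (−0.06) and Uqcr10 (−0.16) had no call.

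In complex IV the highest member was Cox7a1, the heart and skeletal muscle form of subunit VIIa. It read 8.05 and 7.75 in M1 and 9.56 and 9.74 in M2, or 1.51 higher with vehicle and 1.99 higher with IL-1α (effect 1.75 ± 0.12, limma adjusted p = 1.86e-06). Both M2 arrays stood far above both M1 arrays. It rests on 1 probe set, and its mean lay under the 75th percentile of all genes. Cox7a2, the widely expressed form, read 11.48 and 11.44 against 11.39 and 11.58, with overlapping groups (0.03, no call). Of the 7 other tissue-restricted isoforms none was called. Cox6a2 reached the floor (0.20), while Cox4i2 (−0.14), Cox8b (−0.23), Ndufa4l2 (−0.05), Cox6b2, Cox7b2 and Cox8c did not.

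Among the 11 widely expressed complex IV genes, 3 (27.3%) were called higher and 1 (9.09%) lower. The backgrounds were 18.7% higher and 16.2% lower over all genes, and 31.4% and 27.3% at the floor. Ndufa4 read 9.82 and 9.77 in M1 and 10.21 and 10.43 in M2 (0.52 ± 0.08, limma adjusted p = 0.000758). Cox4i1, the common form of the largest nuclear subunit, was 0.38 higher and Cox5b, which binds zinc, 0.31 higher. Cox5a was lower (−0.24), a call lost without the trend, and Cox6a1 (−0.15) and Cox8a (0.01) had no call. The gene AA467197, which encodes a small Ndufa4 paralogue and in the RefSeq table contains the miRNA gene Mir147, is not a member. It read 12.05 and 12.06 in M1 and 9.15 and 9.91 in M2 (−2.52 ± 0.14, adjusted p = 4.43e-07), opposite in sign to Ndufa4.

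Complex V had 11 of 17 members (64.7%) called higher and none lower, with medians of 0.19 (vehicle) and 0.33 (IL-1α). The background was 18.7% of all genes and 31.4% of those at the floor called higher, and without the trend 8 of the 17 were called, Atp5j, Atp5l and Atp5o being lost. The c ring turns as protons pass, and all 3 of its genes were higher. Atp5g1 read 12.29 and 12.12 in M1 and 12.62 and 12.68 in M2 (0.45 ± 0.06, limma adjusted p = 0.000238). Atp5g3 read 11.58 and 11.57 against 11.99 and 12.05 (0.44 ± 0.05, adjusted p = 0.000125). Atp5g2 read 12.39 and 12.31 against 12.68 and 12.74 (0.36 ± 0.05, adjusted p = 0.000403). The phenotypes did not overlap for any of the 3, as for 63% of all genes and 81.4% of those at the floor. Of their 3 promoters shown, that of Atp5g2 held a searched motif.

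In the catalytic head and rotor stalk, 1 of 5 genes (20.0%) was called higher, against 18.7% of all genes and 31.4% of those at the floor. The α subunit Atp5a1 was higher (0.31, limma adjusted p = 0.000712), while the catalytic β subunit Atp5b read 13.35, 13.36, 13.36 and 13.37 on the M1 arrays (vehicle, then IL-1α) and the M2 arrays in the same order, a phenotype effect of 0.01. Of the 9 peripheral stalk and membrane genes, 7 (77.8%) were higher: Atp5h (0.47), Atp5k (0.41), Atp5j2 (0.32), Atp5mpl (0.32), Atp5l (0.26), Atp5o (0.23) and Atp5j (0.19). The calls of Atp5l, Atp5o and Atp5j were lost without the trend. Atp5k, the e subunit that helps synthase dimers form, read 8.90 and 8.79 in M1 and 9.11 and 9.40 in M2. Atp5pb (−0.03) and Atp5md (0.01) had no call. Atpif1, the inhibitor that blocks ATP hydrolysis by the enzyme and is not a member, was also higher in M2 (0.67 ± 0.05, adjusted p = 4.39e-06).

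**Figure D2:**
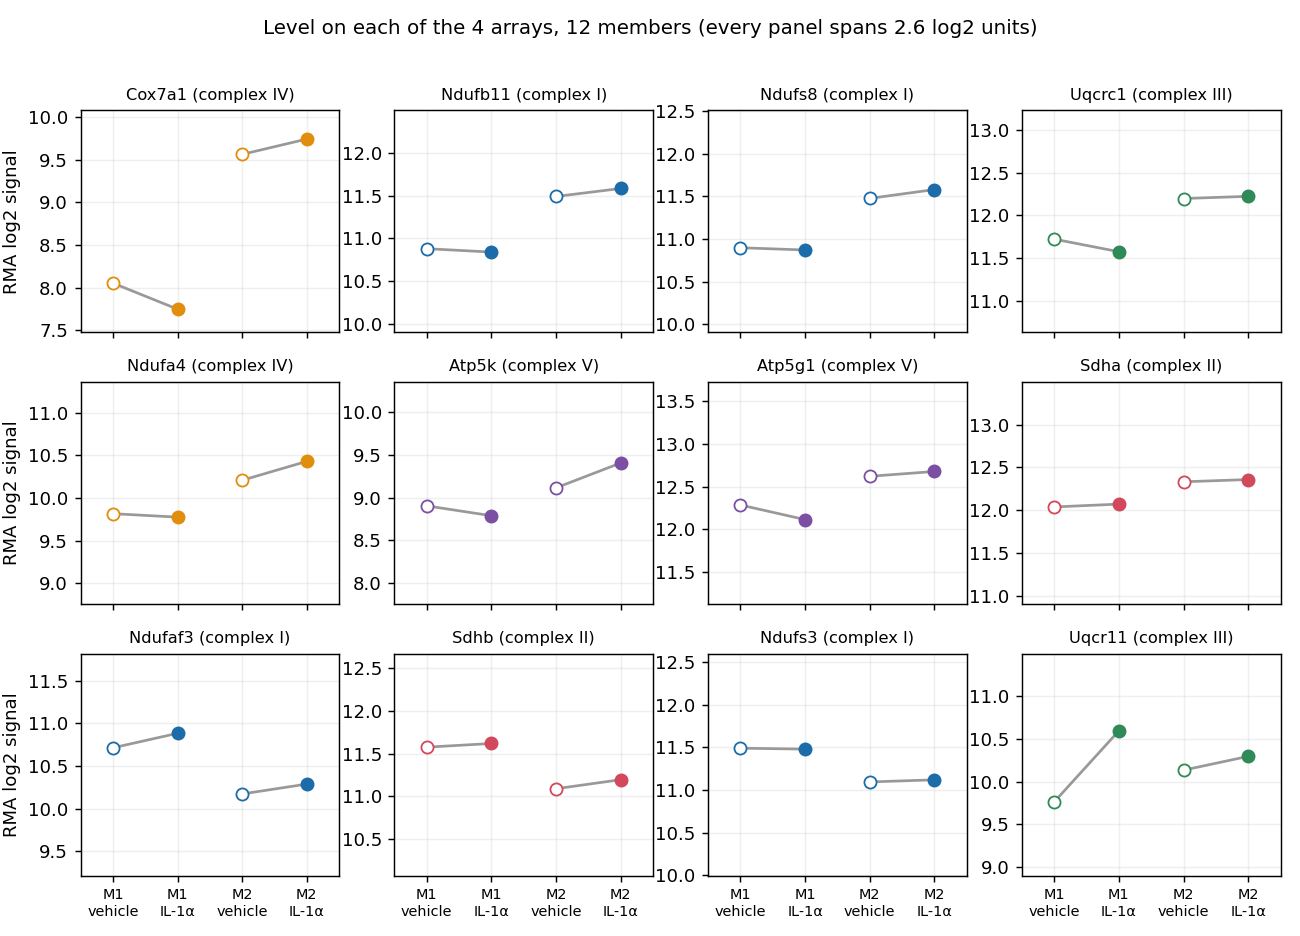
RMA log2 signal (vertical axis) of 12 members on each of the 4 arrays; open points are vehicle, filled points IL-1α, lines join the pair of 1 phenotype, and every panel spans an equal log2 range. The members shown are those described in the text, most of them for a difference. The phenotypes are separate in 11 panels, as they are for 78.7% of members and 81.4% of genes at the floor. In Uqcr11 the M1 vehicle array (9.76) and the M1 IL-1α array (10.60) enclose both M2 arrays.

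IL-1α was compared with vehicle within each phenotype. Of all members, Uqcr11 alone was 1.5-fold apart in either phenotype, and limma found no IL-1α effect common to both phenotypes. At an adjusted p of 0.05 limma called 0 of 89 members and 0 of 19938 genes (background 0%). At an unadjusted p of 0.05, 5 members and 926 genes passed. In this additive model a response confined to 1 phenotype adds to the error, so the lack of calls does not describe either phenotype alone. No member was 2-fold apart (background 0% higher and 0.00502% lower in M1, 0.191% and 0% in M2). At 1.5-fold, 1 member was higher and 0 lower in M1 (0.0201% and 0.0401%), and 0 in either direction in M2 (0.547% and 0.0451%). At 0.32 log2 units, 1 was higher and 2 lower in M1 (1.04% and 0.777%), and again 0 in M2 (2.69% and 2.2%). The median member difference was −0.03 in M1, with 54 of 89 members below 0, and 0.07 in M2, with 75 of 89 above 0. In M1, 9176 of 19938 genes and 5395 of the 10625 genes at the floor were below 0.

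The share above 0 in M2, 84.3%, stood against 51.9% of all genes, 68.7% of those at the floor and 74.7% of those with a mean at the 75th percentile or higher. Bright genes as a class thus lay above 0 in this pair of arrays, and the median of genes at the floor was 0.05. With loess centring or a further quantile normalisation the members' median was 0.03. The response difference (IL-1α difference in M2 minus that in M1) was above 0 for 76 of 89 members, against 66.1% of genes at the floor, with a median of 0.13 (0.06 at the floor), which fell to 0.07 with loess centring or a further quantile normalisation. Since the response difference equals the IL-1α pair's M2 to M1 difference minus the vehicle pair's, it restates the gap between those pairs' medians of 0.04 and 0.18. With a further quantile normalisation those medians were 0.07 and 0.12, and with loess centring 0.04 and 0.13.

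Uqcr11, a small complex III subunit, read 9.76 with vehicle and 10.60 with IL-1α in M1, and 10.14 and 10.30 in M2. The difference of 0.83 in M1 is 1.78-fold, against 0.16 in M2, and it was 1 of 4 genes on the array at least 1.5-fold higher in the M1 pair. Only 2 of all genes had a larger absolute difference in that pair. Its 2 probe sets gave 0.78 and 0.89 in M1 and 0.17 and 0.15 in M2. The M1 vehicle array was lowest and the M1 IL-1α array highest, so the M2 minus M1 difference turned from 0.37 with vehicle to −0.30 with IL-1α (phenotype effect 0.04 ± 0.13, limma adjusted p = 0.896). Uqcrb, a complex III subunit that binds near ubiquinone, also had its lowest value with M1 vehicle (12.06). Its M1 IL-1α array (12.20) was barely above the M2 arrays (12.19 on both). The IL-1α difference of Uqcrb was 0.14 in M1 and −0.002 in M2.

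The other members lay between −0.34 and 0.18 in M1. The highest after Uqcr11 were Cox6a1 (0.18), Ndufaf3 (0.17) and Ndufb7 (0.17), and the lowest were Ndufaf2, a late complex I chaperone (−0.34), Ndufa4l2 (−0.32, under the floor) and Cox7a1 (−0.31). In M2 all members lay between −0.14 and 0.30, with Ndufs5 (0.30), Atp5e, the ε subunit (0.30), and Atp5k (0.29) highest. The lowest in M2 were Ndufa4l2 (−0.14), Cox6b2 (−0.12) and Cox8b (−0.10), none of which reached the floor. The 2 probe sets of Cox7a2l disagreed in the M1 pair (−0.22 and 0.13), and the gaps of the other 15 members with several probe sets, Ndufa11 set aside, were at most 0.16.

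**Figure D3:**
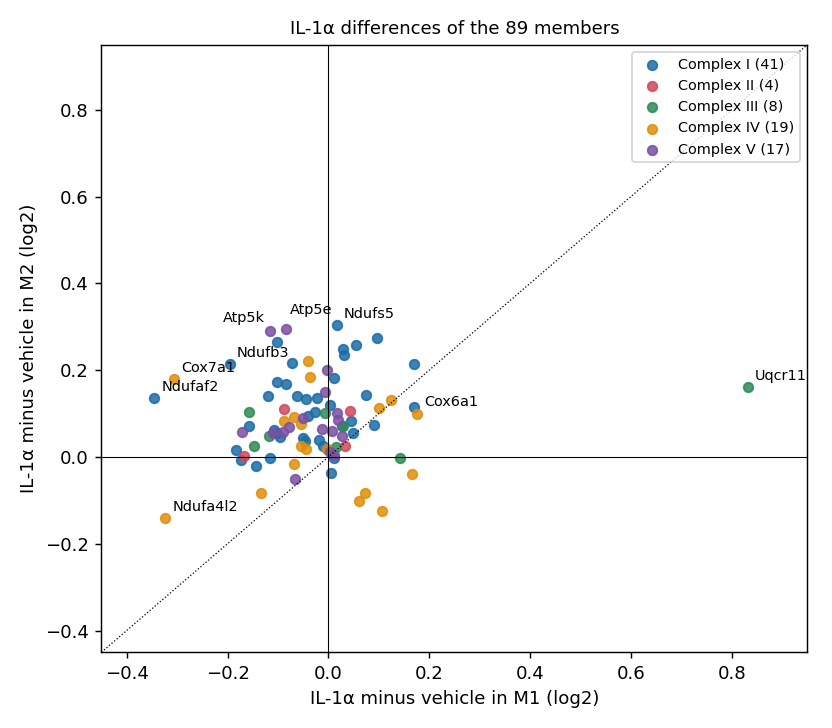
IL-1α minus vehicle difference in log2 signal in M1 (horizontal axis) against M2 (vertical axis) for the 89 members, coloured by complex; the dotted line marks equal differences. Uqcr11, at 0.83 and 0.16, stands apart from all others, and 75 members lie above 0 on the vertical axis.

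Genes that serve the same complexes but fall outside the name rule were read from lists. Of 38 assembly factors beyond the Ndufaf genes, 5 were called higher in M2 and 17 lower, with a median effect of −0.11. The lowest included complex IV factors: Sco1, which delivers copper (−1.32 ± 0.09, limma adjusted p = 1.6e-06), Coa5 (−1.17 ± 0.06), Cox18 (−0.79) and the copper chaperone Cox17 (−0.72). Tmem126b, a complex I membrane arm factor (0.76), and Bcs1l, which inserts the Rieske protein (0.48), were higher. These lists and the members are described by their counts, to be read against the 31.4% of genes at the floor called higher and the 27.3% called lower, and no test compared them. As shares, 13.2% of these assembly factors were higher and 44.7% lower.

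Of 9 electron carriers and entry points, 4 (44.4%) were higher and 4 lower. The carriers of electrons from fatty acid oxidation were higher: Etfb (1.55 ± 0.07, limma adjusted p = 1.35e-07), Etfa (0.57) and Etfdh (0.34). Prodh was also called higher (0.67). Cytochrome c, Cycs (−0.95 with vehicle and −1.05 with IL-1α), cytochrome c1 (Cyc1), the glycerol phosphate dehydrogenase Gpd2 (−1.16 ± 0.09, adjusted p = 3.75e-06) and Sqor (−0.37) were lower. Of 12 ubiquinone synthesis genes none was higher and 3 were lower, Coq2 most (−0.69).

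Of 16 regulators of mitochondrial DNA and biogenesis, 5 (31.2%) were higher and 4 (25.0%) lower, shares near the background of genes at the floor. Tfb2m, needed to start mitochondrial transcription (1.09), and Tfb1m, which methylates mitochondrial ribosomal RNA (1.08), were highest, and the nuclear receptor Esrra (−0.51) and Nrf1 (−0.28) were lower. Ppargc1a, the best known coactivator of the pathway, was under the floor on all arrays (4.94, 4.99, 5.03 and 4.95). Of 77 genes with mitochondrial ribosomal protein symbols (Mrpl or Mrps), 14 (18.2%) were higher and 20 lower. The highest were Mrps36 (0.91) and Mrpl23 (0.89), and the lowest was Mrpl52 (−0.83). These genes were taken by symbol, and whether each encodes a ribosomal protein was not checked.

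**Figure D4:**
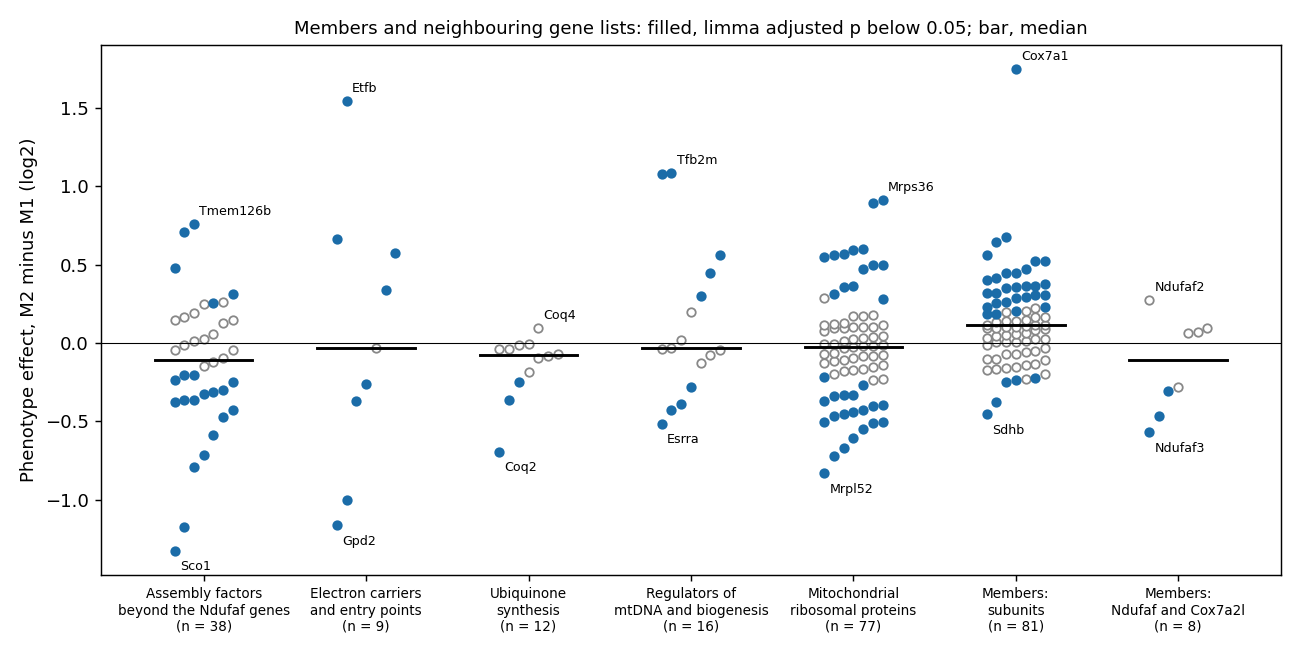
Phenotype effect, M2 minus M1 in log2 units (vertical axis), of each gene of 5 neighbouring lists and of the members split into 81 subunits and 8 others; filled points have a limma adjusted p under 0.05, and bars are medians. Of the 38 assembly factors 17 are filled under 0 and 5 above it, and of the 81 subunits 5 and 29, where 27.3% of genes at the floor were called lower and 31.4% higher.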

How the data were processed

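The authors deposited log2 signals per probe set, which the submitters' processing notes credit to RMA and Affymetrix Expression Console, with no version or setting in the sources used here. The log base is not stated; values from 3.09 to 14.47 fit the log2 scale of RMA. RMA sets the arrays to a common distribution, so a global change in RNA output cannot be seen, and it compresses differences of dim probe sets.

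Of 35556 rows, 21789 carried 1 gene symbol in GEO's platform annotation and were averaged to 19938 genes. All 89 members matched RefSeq (GRCm38.p6) by Entrez number. Groups came from the labels, 1 array each. With limma 3.58.1 in R 4.3.3, lmFit and trended eBayes (Benjamini-Hochberg over all genes, threshold 0.05) fitted phenotype plus treatment, with 1 residual degree of freedom and 8.07 from the prior, and no filter on low values. The labels name no separate cultures or animals, so p-values measure only these arrays. Pairs of arrays have no test.

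Members, lists and named genes were chosen with earlier results of these data known. Named were the 3 highest and 3 lowest per complex, members 1.5-fold apart in any pair and the extremes of each IL-1α difference. Also named were complex II, Uqcr11, isoform pairs, members whose probe sets differed and genes of the lists. Up to 4 genes per list were planned, and more were named from some lists. Alternatives were subunits only, the brightest probe set, loess centring, further quantile normalisation, floors at the median and 75th percentile, thresholds of 1.5-fold and of 0.32 log2 units, eBayes without trend, robust eBayes, and, added after seeing the data, leaving out Uqcr11.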

Additional observations from a re-analysis of the deposited data

Results flagged for a closer look

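Cox7a1, Ndufaf2 and Ndufb3 had IL-1α differences of opposite sign in M1 and M2, each larger than the SD of the M1 pair over all genes (0.12). For Cox7a1 they were −0.31 in M1 and 0.18 in M2, a response difference of 0.48. For Ndufaf2 they were −0.34 and 0.14, also a response difference of 0.48, and for Ndufb3, a complex I membrane arm subunit, −0.20 and 0.21, a response difference of 0.41. Each phenotype has 1 pair of arrays, so the difference between phenotypes was not tested. These are 3.37% of members, against 6.51% of all genes that meet the same criterion.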

How the results depend on the processing

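No paired analysis was possible because each group has 1 array and so no replicates to pair, beyond the treatment term of the additive model, which sets M2 against M1 within each treatment. Of the 37 members called by limma, 22 were called under all 7 alternative fits (19 higher and 3 lower in M2), 4 that a floor leaves out (Cox7a1, Atp5k, Ndufaf1 and Ndufaf5) were called under every fit that held them, 11 were lost without the trend, and no member turned its direction as a called value. Members called higher went from 29 to 17 when a difference of at least 0.32 log2 units was also asked. Members called lower went from 8 to 5 with subunits only, 13 with loess centring, 5 without the trend and 4 with at least 0.32 log2 units; the cause was not tested beyond the fewer genes that a stricter rule admits. For 2-fold counts, a floor at the 75th percentile took the number higher in M2 from 1 to 0 in each treatment, since it leaves out Cox7a1. At 1.5-fold, 2 members were higher with vehicle, 6 higher and 1 lower with IL-1α, and 1 higher with IL-1α in M1. At 0.32 log2 units, 12 were higher and 6 lower with vehicle, 26 higher and 4 lower with IL-1α, and 1 higher and 2 lower with IL-1α in M1. Medians moved by less than 0.1 under every alternative run, but several medians are of that size or smaller. The vehicle median and the response difference moved by over 1.5 times (0.04 to 0.07, and 0.13 to 0.07, with quantile normalisation). The median IL-1α difference in M2 also fell with loess centring or quantile normalisation, as given with that comparison. With 1 array per group, a spread between cultures could not be measured.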
